A study of Mus musculus with 8 samples.

Results

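Serine/arginine-rich (SR) proteins are splicing factors that bind exons and help the spliceosome choose splice sites, and CLK kinases phosphorylate their arginine/serine-rich tails in the nucleus. Here 10 genes of this system were followed in mouse liver: the SR protein genes Srsf1, Srsf2, Srsf3, Srsf5, Srsf6, Srsf7 and Srsf11, the related genes Tra2a and Tra2b, and the kinase gene Clk1. They were chosen by symbol from a list that was drawn up with earlier results of these data known, among them a lower Tra2a mRNA, so their mRNA values are a description and carry no test. All 10 were found among the 24535 RNA-seq entries and the 25033 Ribo-seq entries, and all 10 passed the filter on low values in both assays.

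Livers came from male C57BL/6 mice at postnatal week 25. From week 8, the HF group had received a high-fat diet (45% of kcal from fat), and the HB group the same diet with betaine, a methyl donor, in its water at 2% (w/v). A protocol in the labels instead gives 25 weeks on the diet, which this age and start week do not allow. Each group had 2 RNA-seq libraries of polyadenylated mRNA and 2 Ribo-seq libraries of ribosome-protected fragments (RPFs), which report the mRNA that ribosomes occupy. Both groups carried the high-fat diet and mice on a standard diet were not analysed here. The labels describe pooled RNA preparations, whereas the study's methods speak of individual mice picked by body weight. Which mouse is in which library is not given in the sources used here. The replicates were therefore counted as libraries, and p-values measure only the spread between these libraries.

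SR proteins commonly control their own level. When the protein is abundant, the gene's RNA is spliced to include an exon with an early stop codon (a poison exon) or to keep an intron, and such RNA is destroyed by nonsense-mediated decay (NMD) or held in the nucleus. CLK1 RNA is also known for retained introns that keep part of it in the nucleus until it is spliced. In GENCODE M21, each of the 10 genes had at least 1 transcript classed as an NMD target and at least 1 classed as retained intron, with 18 and 37 such transcripts among their 93. Of the 10193 protein-coding genes tested for mRNA, 24.0% had both kinds, but retained introns and poison exons were part of the reason these genes were chosen, so nothing is read from the difference.

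The premature stops themselves can be read from the annotation. For 6 of the genes, an NMD transcript held an exon that no protein-coding transcript of that gene overlaps and in which its reading frame ends. These stretches are shown because the deposited values give a single number per gene, in which reads of productive and unproductive transcripts are added together. Each runs 5′ to 3′ on the strand of the gene, from the first base of the exon to the end of the stop codon, which is in capitals (GRCm38, GENCODE M21).

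Srsf3, chr17:29039454-29039487, plus strand: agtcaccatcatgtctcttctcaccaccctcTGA
Srsf6, chr2:162932815-162932966, plus strand: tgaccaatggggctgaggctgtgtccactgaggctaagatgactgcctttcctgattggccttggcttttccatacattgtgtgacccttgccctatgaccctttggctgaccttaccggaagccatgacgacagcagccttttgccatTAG
Srsf7, chr17:80205054-80205081, minus strand: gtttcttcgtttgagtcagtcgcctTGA
Srsf11, chr3:158024209-158024231, minus strand: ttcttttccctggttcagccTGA
Srsf11, chr3:158023310-158023359, minus strand: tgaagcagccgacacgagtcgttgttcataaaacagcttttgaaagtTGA
Tra2a, chr6:49252965-49253108, minus strand: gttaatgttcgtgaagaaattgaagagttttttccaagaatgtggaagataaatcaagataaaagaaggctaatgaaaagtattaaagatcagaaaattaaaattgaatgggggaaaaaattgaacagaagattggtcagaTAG
Tra2b, chr16:22259181-22259261, minus strand: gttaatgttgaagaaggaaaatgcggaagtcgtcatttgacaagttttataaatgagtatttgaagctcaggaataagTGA

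The shortest of these stretches holds 20 coding bases before the stop and the longest holds 149. Values per gene hold no separate count for these exons.

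The mean mRNA level of each of these genes was lower in the HB group, though only 6 of the 10 were called lower. Values are RPKM (a read number divided by the length of the gene and the size of its library), given for replicate 1 and then replicate 2 of each group, and differences are log2 values of HB minus HF on the log2(RPKM + 1) scale with the standard error (SE) of the limma fit. All 10 differences were below 0, with a median of -1.28 over the genes and a range from -2.43 to -0.41. Over the 10687 genes tested the median was -0.19, and 60.2% were below 0. The distance between these medians was -1.10 with the RPKM as deposited. A rescaling moves all genes of a library nearly alike, so it could hardly change this distance (-1.10 under each of the 3 tried). In 9 of the 10 genes both HB libraries lay below both HF libraries, which was so for 43.3% of all genes tested. At a log2 difference beyond 1 with an unadjusted p under 0.001 (limma), 6 members were called lower and 0 higher, against 6.56% and 2.3% of all genes tested (701 lower and 246 higher, or 291 and 540 when the libraries were shifted to a common median). With that shift 4 members were called lower, and without HF replicate 1 there were 3. Since the list was chosen on this contrast, these counts describe the members and support nothing further. In bulk liver, fewer cells of a type and less RNA per cell cannot be told apart.

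The difference was largest in size for Srsf11 (chr3:158010473-158036639), whose protein is an SR factor of nuclear speckles. It had 180.3 and 128.0 RPKM in HF and 24.0 and 31.3 RPKM in HB. Its group means were 154.1 ± 37.0 and 27.7 ± 5.12 (SD, n = 2 libraries each), 5.57-fold apart, and its log2 difference was -2.43 (SE 0.28). The HF libraries differed from each other more than the HB libraries did, yet the groups did not overlap.

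The kinase gene Clk1 (chr1:58410189-58424066) came next. It had 102.1 and 88.7 RPKM in HF and 22.1 and 20.4 RPKM in HB, a log2 difference of -2.11 (SE 0.25) and a 4.49-fold difference of the means.

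Tra2a and Tra2b encode SR-like factors that bind purine-rich exon sequences. Tra2a (chr6:49243924-49264033) had 53.4 and 51.1 RPKM in HF and 13.4 and 13.8 RPKM in HB. Its log2 difference was -1.87 (SE 0.24), and the replicates of each group lay close together. Tra2b (chr16:22244549-22266005), the less abundant of the pair, had 18.9 and 17.7 RPKM in HF and 10.4 and 6.31 RPKM in HB, a log2 difference of -1.08 (SE 0.28). Its groups did not overlap, but it was not called.

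Among the SR proteins that act at alternative exons, Srsf7 (chr17:80200080-80207307) had 53.5 and 44.7 RPKM in HF and 15.4 and 17.2 RPKM in HB, a log2 difference of -1.53 (SE 0.25). Srsf6 (chr2:162931528-162937121) had 68.2 and 60.1 RPKM in HF and 26.6 and 22.8 RPKM in HB, a log2 difference of -1.34 (SE 0.25). Srsf5 (chr12:80945504-80950507), the most abundant member per length in both groups, had 204.0 and 197.0 RPKM in HF and 86.6 and 83.6 RPKM in HB, a log2 difference of -1.23 (SE 0.25). These 3 genes were called lower, and every HB library held less than the lower HF library.

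Srsf2 (chr11:116849901-116853094), whose product SC35 marks nuclear speckles, had 120.5 and 109.5 RPKM in HF and 56.99 and 53.3 RPKM in HB. Its log2 difference of -1.05 (SE 0.25) passed the fold threshold but not the threshold on p. Of its 2958 annotated exon bases, 460 are shared with Mettl23 and 288 with Mfsd11 on the opposite strand, and whether the counting used strand is not given in the sources used here. Mettl23 had 8.17 to 14.9 RPKM and Mfsd11 4.91 to 14.4 RPKM over the 4 libraries, so both lay far below Srsf2.

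Srsf1 and Srsf3, whose SR proteins also act in mRNA export, showed the smallest differences. Srsf1 (chr11:88047373-88053755) had 18.9 and 20.9 RPKM in HF and 17.9 and 11.4 RPKM in HB, a log2 difference of -0.45 (SE 0.28). Srsf3 (chr17:29032628-29043373) had 26.9 and 22.4 RPKM in HF and 22.8 and 14.7 RPKM in HB, a log2 difference of -0.41 (SE 0.28). Srsf3 was the only member whose groups overlapped, and neither gene was called.

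**Figure D1:**
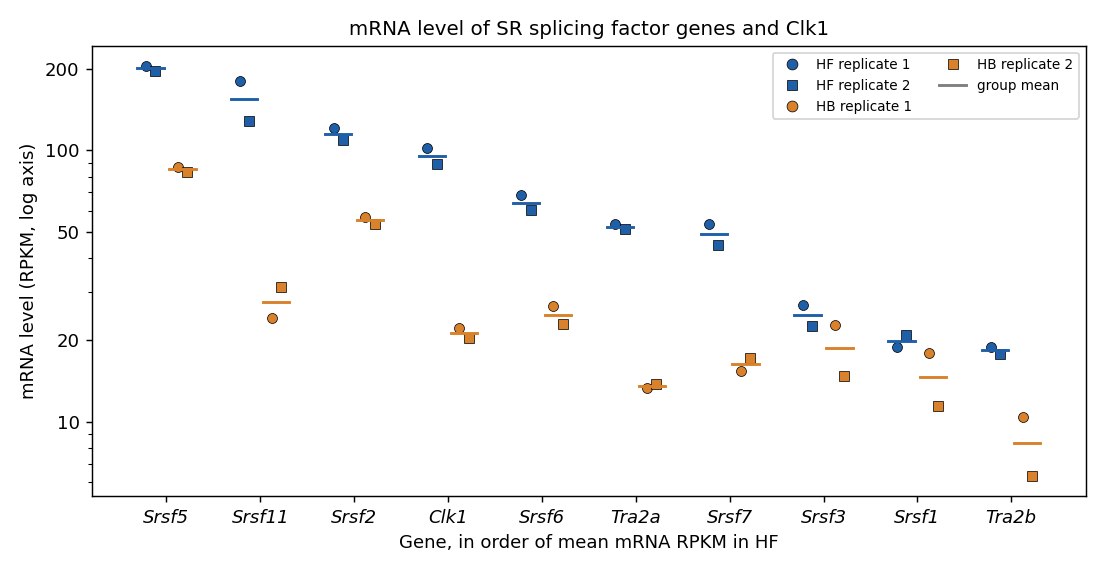
mRNA level of the 10 genes in RPKM on a log axis, with a point for each library (circle replicate 1, square replicate 2, blue HF, orange HB) and a line at each group mean. The HB points lie below the HF points in every gene but Srsf3, and the gap is widest in Srsf11 and Clk1.

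The summed mRNA RPKM of the 10 genes was 846.6 and 740.1 in HF and 296.1 and 274.7 in HB, so that the HB mean was 36.0% of the HF mean. The order of the levels also changed. In HF it ran Srsf5, Srsf11, Srsf2, Clk1, Srsf6, Tra2a, Srsf7, Srsf3, Srsf1 and Tra2b, and neighbours overlapped only between Tra2a and Srsf7 and between Srsf1 and Tra2b. In HB it ran Srsf5, Srsf2, Srsf11, Srsf6, Clk1, Srsf3, Srsf7, Srsf1, Tra2a and Tra2b, with Srsf11 and Srsf6 not separated, nor any neighbours from Clk1 to Tra2a. These mRNA values rest on 388 to 6489 reads per gene and library.

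Footprints were measured in other libraries than the mRNA contrast named in the choice of members, although the list was drawn up with earlier results of these data known. No member was called lower or higher at the RPF level (log2 difference beyond 1 with an unadjusted p under 0.05, limma), against 7.86% and 1.58% of the 11190 genes tested (879 lower and 177 higher, or 421 and 349 at a common median and 2659 and 41 at a common sum of RPKM), and 0 members had an unadjusted p under 0.05. At the common sum 3 members, Srsf1, Srsf11 and Clk1, were called lower, and the members' median was -1.16. Mir122 alone held 418561 and 778452 of the 1738581 and 2642062 RPKM summed in the HB Ribo-seq libraries. With RPKM rescaled to protein-coding reads, 0 members were called lower or higher and the members' median was -0.23. The counts over all genes also turned on single libraries, with 2609 lower and 403 higher without HB replicate 1, 1588 and 524 without HB replicate 2 and 722 and 57 without HF replicate 1. Among all tested genes the lowest adjusted p was 0.108, and an unadjusted p under 0.05 was found for 1122. The members' log2 differences had a median of -0.35, beside -0.43 over all genes, with 8 below 0 and 2 above, while at a common median 5 were below 0 and at a common sum all 10 were. Relative to the median of all genes, the members' median stood at 0.08 with the RPKM as deposited. It lay between 0.00 and 0.09 under the rescalings, which by construction could hardly change it. Of the members, 4 had both HB libraries below both HF libraries and 1 had both above, where 33.2% and 9.07% of all genes did, and 5 overlapped. The summed RPF RPKM was 164.0 and 206.7 in HF and 117.8 and 185.4 in HB, an HB mean of 81.8% of the HF mean.

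The depth behind these values was small. The 10 genes together held 754 RPF reads in the HF libraries and 156 in the HB libraries, and a single member had between 1 and 135 reads in a library. The RPF libraries held 141890 to 1056546 reads in all, with the HB libraries the smallest. Read numbers were recovered from the steps between RPKM values, and intervals from them cover counting error only.

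Srsf1 had the most footprint reads. It had 29.7 and 22.98 RPF RPKM in HF and 16.8 and 13.9 in HB, from 64, 135, 24 and 11 reads. The groups did not overlap, but the log2 difference of -0.73 had a 95% interval from -1.71 to 0.24 (adjusted p = 0.577, limma). Clk1 had 19.3 and 16.9 RPF RPKM in HF and 11.2 and 12.2 in HB, from 13, 31, 5 and 3 reads. Its groups did not overlap either, and its log2 difference was -0.59 with an interval from -1.61 to 0.43 (adjusted p = 0.643, limma).

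Tra2b was the gene whose footprints lay higher in both HB libraries. It had 10.5 and 9.78 RPF RPKM in HF and 15.9 and 19.2 in HB, from 15, 38, 15 and 10 reads. The log2 difference was 0.73 with an interval from -0.33 to 1.78 (adjusted p = 0.602, limma), so it did not exceed the spread between libraries by this test. Its mRNA lay lower in both HB libraries.

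Tra2a had 11.3 and 8.83 RPF RPKM in HF and 4.27 and 11.6 in HB, and the groups overlapped. These values rest on 8 and 17 reads in HF and on 2 and 3 reads in HB. Scaled by the library totals, the HB to HF ratio of its pooled reads was 0.724, with an exact (Clopper-Pearson) 95% counting interval from 0.217 to 1.93. The same counting interval lay below 1 for Srsf1 (0.431 to 0.916), Srsf2 (0.251 to 0.992) and Srsf11 (0.139 to 0.916) and above 1 for Tra2b (1.02 to 2.80), and it does not cover the spread between libraries. For Tra2a the log2 difference was -0.43, with an interval from -2.05 to 1.19 (adjusted p = 0.811, limma), which takes in both no difference and a fall as large as that of its mRNA.

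Srsf11 had 12.4 and 12.2 RPF RPKM in HF and 1.25 and 11.4 in HB. The low HB value was a single read and the other was 5 reads, against 15 and 40 reads in HF. Its log2 difference of -1.34 was the lowest of the members, with an interval from -3.73 to 1.06 (adjusted p = 0.649, limma). Without HB replicate 1, the library with the single read, it was -0.11, and without HB replicate 2 it was -2.56. The gap between the HB libraries was larger than that between the groups in replicate 2.

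For the remaining SR genes the RPF differences were small beside their error. Srsf7 had 11.3 and 10.8 RPF RPKM in HF and 5.10 and 15.4 in HB, so the HB libraries lay on either side of HF (log2 difference -0.26, interval -1.91 to 1.38). Srsf6 had 15.99 and 19.2 in HF and 13.2 and 15.9 in HB (-0.26, interval -1.28 to 0.76). Srsf5 had 30.3 and 58.1 in HF and 30.5 and 41.4 in HB (-0.24, interval -1.38 to 0.91). In Srsf5 the spread within HF was wider than the distance between the groups, and only Srsf6 among these 3 had groups that did not overlap.

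Srsf2 also varied between replicates, with 12.2 and 33.3 RPF RPKM in HF and 8.18 and 25.9 in HB, and replicate 2 was the higher library in both groups (-0.44, interval -2.41 to 1.53). Srsf3 had 11.02 and 14.6 in HF and 11.5 and 18.5 in HB (0.19, interval -1.01 to 1.39). Over these 5 genes the adjusted p ran from 0.820 to 0.887 (limma). The lower limit of the interval passed the fold threshold in every member but Tra2b, so the test does not show that footprints were alike in the groups.

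**Figure D2:**
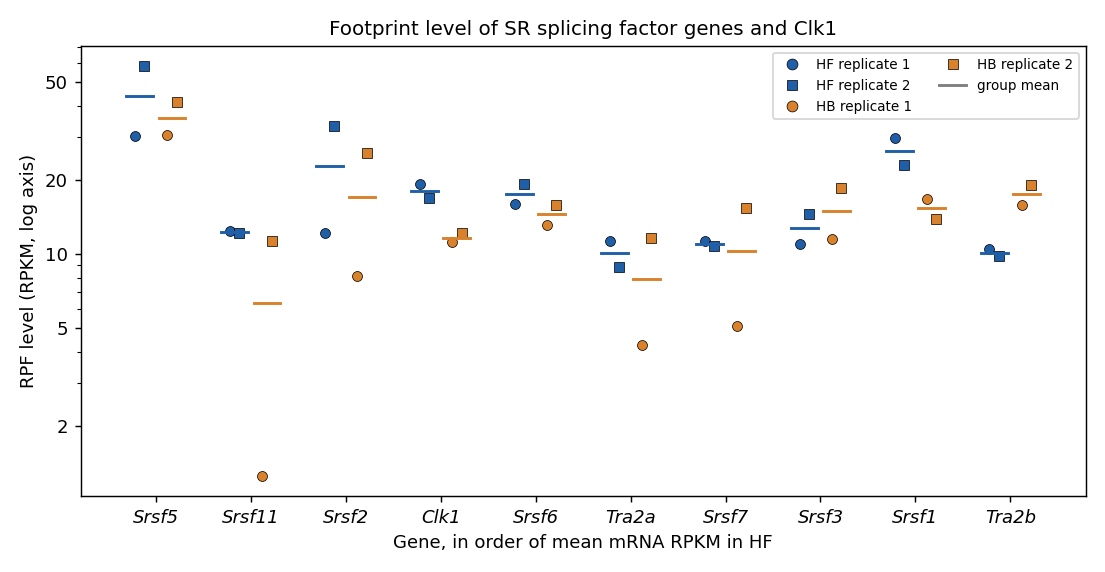
RPF level of the 10 genes in RPKM on a log axis, with a point for each Ribo-seq library (circle replicate 1, square replicate 2, blue HF, orange HB) and a line at each group mean. HF and HB points interleave in 5 of the 10 genes, Tra2b is higher in both HB libraries, and the lowest point, Srsf11 in HB replicate 1, is 1 read.

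Translation efficiency (TE) is the RPF RPKM divided by the mRNA RPKM of the same-numbered libraries of a group. Whether such a pair shares an animal is not given in the sources used here, and across genes the deviations of its libraries correlated at -0.00239 in HF and -0.0774 in HB. As it holds the mRNA values, it is given for these genes as a description, without p-values. The log2 TE difference was above 0 in 9 of the 10 genes, with a median of 1.09 over the genes beside -0.35 over the 9455 genes tested, of which 36.8% were above 0. Without HB replicate 2 the differences of Srsf2 and Srsf3 were -0.21 and -0.02, and without HF replicate 1 that of Srsf2 was -0.15. At a common sum of RPKM 7 of the 10 were above 0, without Srsf2 and Srsf3. Relative to all genes the members' median lay between 1.35 and 1.45 under the rescalings, which by construction could change it little. As a description only, no member passed the thresholds for a call (log2 difference beyond 2 with an unadjusted p under 0.05), against 4.6% of all genes called lower and 1.49% called higher (435 and 141, or 1332 and 42 at a common sum). With 1 library left out, 123 and 63 (HF replicate 1), 179 and 82 (HF replicate 2), 1266 and 304 (HB replicate 1) or 723 and 455 (HB replicate 2) were called, and 179 and 71 at a mean RPKM of at least 5. In 6 members both HB ratios lay above both HF ratios, which was so for 13.2% of all genes, and the other 4 overlapped.

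The TE of Tra2b was 0.557 and 0.552 in HF and 1.53 and 3.04 in HB, a log2 difference of 1.81 (SE 0.58). That of Clk1 was 0.189 and 0.190 in HF and 0.505 and 0.597 in HB, a log2 difference of 1.52 (SE 0.72). For Tra2a it was 0.212 and 0.173 in HF and 0.320 and 0.843 in HB, a log2 difference of 1.44 (SE 0.80). In these genes every HB ratio was above every HF ratio, although the Tra2a ratios in HB rest on 2 and 3 footprint reads.

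Srsf7, Srsf6 and Srsf5 had the same arrangement. The TE of Srsf7 was 0.211 and 0.241 in HF and 0.331 and 0.898 in HB. That of Srsf6 was 0.235 and 0.320 in HF and 0.494 and 0.696 in HB. Srsf5 had 0.149 and 0.295 in HF and 0.352 and 0.496 in HB, the narrowest of these gaps.

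In Srsf11, Srsf2, Srsf3 and Srsf1 the groups overlapped. Srsf11 had the lowest TE of the members in HF, 0.0690 and 0.0953, and 0.0521 and 0.363 in HB. Srsf2 had 0.101 and 0.304 in HF and 0.144 and 0.486 in HB, and Srsf3 had 0.409 and 0.652 in HF and 0.506 and 1.26 in HB. Srsf1 was the member whose log2 difference was below 0 (-0.29, SE 0.54), with 1.57 and 1.10 in HF and 0.941 and 1.22 in HB.

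**Figure D3:**
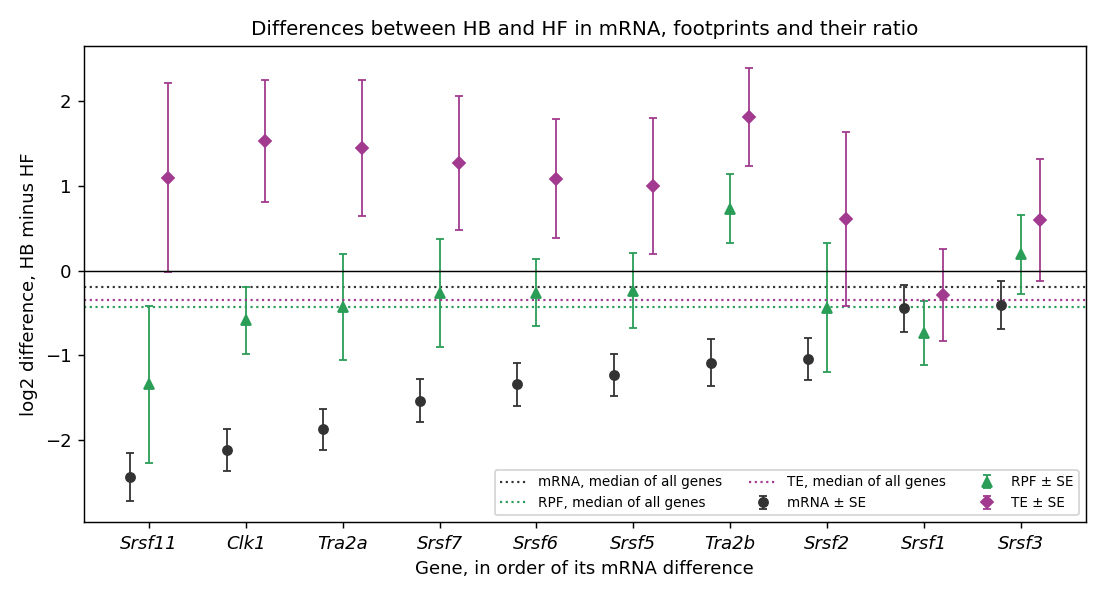
log2 differences of HB minus HF for mRNA (black circles), RPF (green triangles) and TE (purple diamonds) of the 10 genes, with bars of 1 SE and dotted lines at the median of all genes tested in each measure. The mRNA points run from -2.43 to -0.41, while the RPF points lie around the median of all genes and the TE points lie above 0 in every gene but Srsf1 (at a common sum of RPKM also below 0 in Srsf2 and Srsf3).

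Within the HF group 9 of the 10 genes, all but Srsf1, had a TE below the median of all genes. The median of the members' TE was 0.224 in HF, where the median over all genes was 1.09, and 0.588 in HB, where it was 0.899. Ranked by mean log2 TE among the 9455 genes, the members had a median percentile of 6.3 in HF and 34.8 in HB. In HF, 7 of the 10 genes lay in the lowest 10% of all genes, and in HB 1 did. Srsf11 was at percentile 1.1 in HF and 6.3 in HB, Clk1 at 5.1 and 34.4, and Tra2a at 5.4 and 33.5. Srsf1, at 60.5 in HF and 63.9 in HB, stood in the upper part in both groups.

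The level of TE depends on the gene length that each assay was divided by. The recovered lengths were those of whole transcripts rather than coding sequences, and the coding sequence made up 13.7% to 83.3% of the length counted for the members (median 33.0%), beside a median of 55.3% over 9003 genes. With RPF per coding base, an alternative chosen after seeing the data, the median percentile of the members was 16.6 in HF and 51.1 in HB, with 4 genes in the lowest 10% in HF and 0 in HB. Srsf11 stayed at 2.0 in HF and Clk1 at 3.8, whereas Srsf1 was at 92.3, Srsf3 at 67.9 and Tra2b at 57.8, and these 3 genes were at 94.5, 87.4 and 95.6 in HB. Clk1 was counted over 3088 bases in RNA-seq and 1739 in Ribo-seq, and with the RNA-seq length in both assays its percentile was 1.8 in HF and 16.3 in HB. Of the 10 genes, 3 had the same length in both assays.

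**Figure D4:**
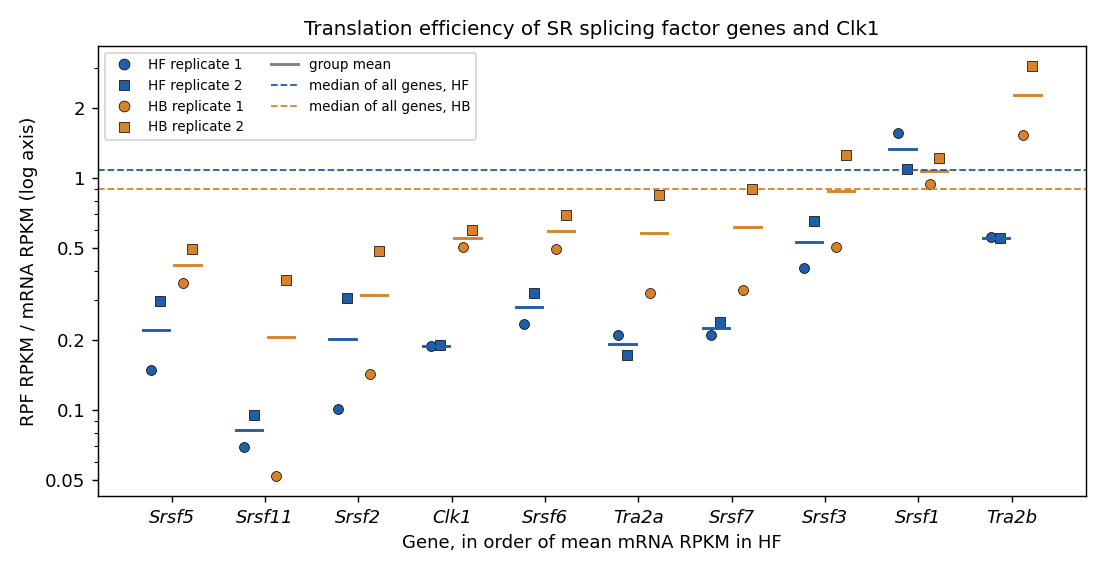
TE of the 10 genes (RPF RPKM over mRNA RPKM, log axis) in each pair of libraries with the same number, with lines at the group means and dashed lines at the median of all genes in each group. In HF 9 of the 10 genes lie below the median of all genes, and only Srsf1 lies above it.

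Other genes of the SR system were examined in lists that were written by hand, also with earlier results known. Of the remaining SR protein genes, 3 of 4 were tested for mRNA and 1 was called lower, beside 6.56% of all genes. This was Srsf4, with 67.7 and 46.9 RPKM in HF and 11.3 and 20.95 in HB (log2 difference -1.80, SE 0.33, adjusted p = 0.00696, limma). Srsf10 had 18.4 and 16.4 RPKM in HF and 11.8 and 7.69 in HB (adjusted p = 0.0556, limma), and Srsf9 had 11.4 and 15.8 in HF and 17.7 and 18.2 in HB (adjusted p = 0.286, limma). Srsf12 was near 0 in every library and was not tested. At the RPF level 0 of the 3 were called, where 7.86% of all genes were called lower and 1.58% higher.

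The other CLK kinase genes were called lower as well. Of 9 genes for kinases and import of SR proteins, 8 were tested for mRNA and 4 were called lower, beside 6.56% of all genes, namely the 3 remaining CLK genes and Srpk2, a kinase that phosphorylates SR proteins mainly in the cytoplasm. Clk4, the closest paralog of Clk1, had 93.4 and 75.7 RPKM in HF and 18.7 and 18.5 in HB (log2 difference -2.12, SE 0.25, adjusted p = 0.00496, limma). Clk2 had 25.5 and 28.8 in HF and 7.04 and 9.23 in HB, and Clk3 had 90.9 and 49.5 in HF and 14.8 and 27.1 in HB. Srpk2 had 9.31 and 8.40 in HF and 2.47 and 2.21 in HB. The adjusted p of these 3 genes was 0.00526 to 0.0111 (limma). Srpk1, Dyrk1a, Prpf4b and the import receptor gene Tnpo3 were not called, with log2 differences from -0.75 to 0.04. At the RPF level 0 of the 8 were called, beside 7.86% of all genes called lower. All 8 differences were below 0, with a median of -0.95, where 70.4% of all genes were below 0 with a median of -0.43.

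SR-related nuclear proteins carry arginine/serine-rich stretches or work in nuclear speckles. Of their 31 listed genes, 13 were called lower in mRNA and 0 higher, beside 6.56% and 2.3% of all genes. A difference below 0 was found in 30 of them (median -1.09), beside 60.2% of all genes (median -0.19). The 8 with the smallest p were Srek1, Luc7l2, Prpf38b, Sfswap, Rbm25, Rbm39, Srrm1 and Bclaf1. Srek1 had 33.9 and 29.2 RPKM in HF and 5.58 and 6.59 in HB, and Luc7l2, a U1 snRNP component, had 139.2 and 162.0 in HF and 35.6 and 30.0 in HB. The log2 differences of these 8 genes ran from -2.20 to -1.49, with adjusted p from 0.00493 to 0.00589 (limma). In RPF, 0 of the 31 were called higher and 4 were called lower, beside 1.58% and 7.86% of all genes. These were Rbm25 (log2 difference -2.03), Srek1 (-1.81) and, named after their values were seen, Son (-1.27) and Pnn (-2.14), all with an adjusted p = 0.493 (limma). The HB libraries held 2 and 3 reads for Rbm25, 1 and 1 for Srek1 and 0 and 1 for Pnn, beside 18 and 20 for Son.

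The genes of NMD and the exon junction complex, the machinery that removes transcripts with premature stops, were examined in the same way. Of 15 tested for mRNA, 2 were called lower (6.56% of all genes were) and 0 higher (2.3%). The median log2 difference was -0.37, beside -0.19 over all genes. Among them, Upf3b had 12.6 and 12.1 RPKM in HF and 5.32 and 3.87 in HB (log2 difference -1.26, SE 0.26, adjusted p = 0.00931, limma). In RPF 0 of 13 were called, where 7.86% of all genes were called lower. In TE 2 of 13 were called lower, beside 4.6% of all genes, Upf3a with -2.08 and Eif4a3 with -2.79, each with 0 to 2 footprint reads in an HB library and adjusted p of 0.408 and 0.409 (limma), and both are named after their values were seen. In the other lists no gene was called in TE. The median log2 TE difference was 1.05 for other SR proteins (3 of 3 above 0) and 0.715 for SR-related nuclear proteins (24 of 31). It was 0.375 for kinases and import (5 of 8), -0.003 for the NMD list (6 of 13) and -1.38 for nuclear noncoding RNAs (0 of 2). Over all genes it was -0.35, with 36.8% above 0.

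**Figure D5:**
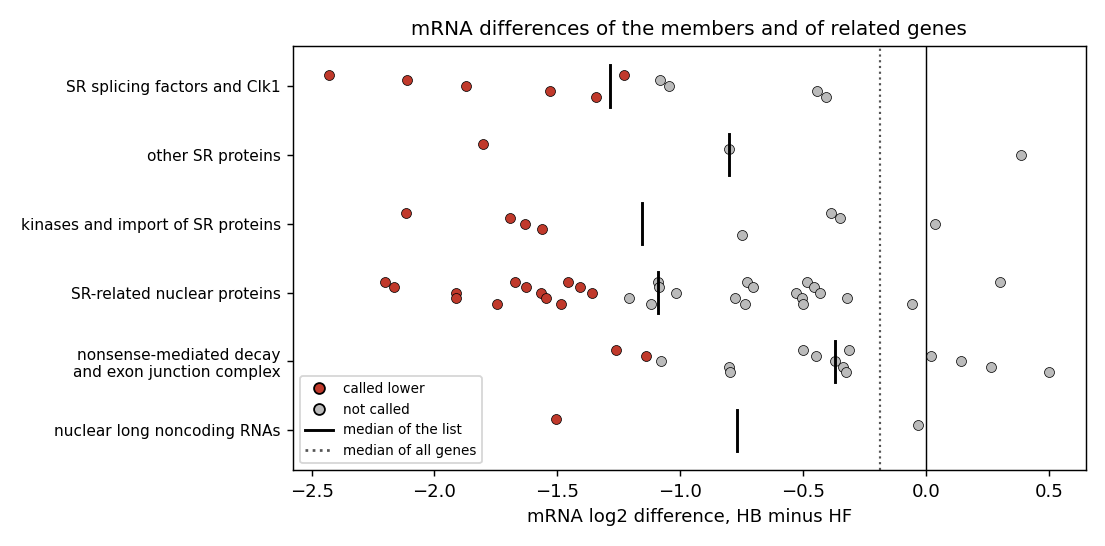
mRNA log2 differences of HB minus HF for the 10 members and for each tested gene of the 5 related lists, red where called lower and grey where not called, with a bar at the median of each list and a dotted line at the median of all genes (-0.19). The medians are -1.28 for the members, -1.16 for the kinases, -1.09 for the SR-related proteins and -0.37 for the NMD list.

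RNA that stays in the nucleus was also counted in the Ribo-seq libraries. Neat1, the noncoding RNA of paraspeckles, had 747.7 and 598.8 RPF RPKM in HF and 33.0 and 126.1 in HB, from 924, 2015, 27 and 57 reads (log2 difference -3.35, SE 0.67, adjusted p = 0.493, limma), and it was called lower. Its mRNA value was called lower too, with 51.3 and 64.8 RPKM in HF and 20.6 and 18.7 in HB. Malat1, a noncoding RNA of nuclear speckles, had 636.7 and 375.9 RPF RPKM in HF and 290.8 and 220.0 in HB (adjusted p = 0.499, limma), while its mRNA value had a log2 difference of -0.03. Of the 3 nuclear noncoding RNAs listed, 1 of 3 was called lower in RPF (7.86% of all genes were) and 1 of the 2 tested in mRNA (6.56%). Reads of nuclear RNA were thus among the RPF reads, and their part in the footprint values of the SR genes was not tested.

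Liver identity was checked with marker genes fixed by cell type. The 7 hepatocyte markers had a summed mRNA level of 44410 to 46680 RPKM in HF and 49500 to 49890 in HB, and Alb reached 21470 RPKM or more in every library. Most of that sum came from Alb, Apoa1 and Ttr, and Hnf4a, the transcription factor in the list, was lower in both HB libraries (220.7 and 155.7 in HF, 116.7 and 133.7 in HB). Kupffer cell markers summed to 101.4 to 111.5 RPKM in HF and 107.0 to 124.1 in HB, endothelial markers to 49.2 to 60.8 and 50.1 to 60.0, and cholangiocyte markers to 2.89 to 4.05 and 2.02 to 4.16. Within the Kupffer cell list Clec4f was lower in both HB libraries (72.6 and 64.4 RPKM in HF, 48.9 and 49.6 in HB), while Cd5l (11.3 and 18.8 in HF, 41.4 and 32.6 in HB) and Vsig4 (4.49 and 8.80 in HF, 16.8 and 11.01 in HB) were higher, without a call. Of the endothelial markers, Stab2 (9.76 and 10.4 RPKM in HF, 4.00 and 6.02 in HB) and Pecam1 (6.71 and 4.49 in HF, 3.87 and 4.02 in HB) were lower in both HB libraries, also without a call. Stellate cell markers were at 29.6 to 29.7 in HF and 38.4 to 67.5 in HB, and lymphocyte markers at 4.80 to 7.21 in HF and 2.60 to 2.69 in HB. Sox9 of the cholangiocyte list (1.08 and 0.714 in HF, 0.385 and 0.374 in HB), Ptprc of the lymphocyte list (3.70 and 4.25 in HF, 1.44 and 1.49 in HB) and Des of the stellate cell list (3.41 and 3.06 in HF, 1.62 and 2.96 in HB) were lower in both HB libraries, and the stellate cell markers Dcn (21.9 and 22.4 in HF, 57.8 and 30.6 in HB) and Col1a1 (0.752 and 0.442 in HF, 0.785 and 1.74 in HB) were higher. In all, 7 of the 29 markers lay lower in both HB libraries (43.3% of all genes tested did), 4 higher, and 18 overlapped. None of the 29 markers was called, where 6.56% of all genes tested were called lower and 2.3% higher. The part of the markers in the SR gene values was not tested. RNA-seq libraries held 11661207 and 11824128 reads in HF and 22543471 and 18082685 in HB.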

How the data were processed

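RNA-seq and Ribo-seq of mouse liver gave 2 libraries per group and assay. FANSe2 was used by the authors for mapping to mm10, and the deposited values are RPKM, 1 per gene in each library. The submitters' processing notes also name edgeR, which needs counts. Whether reads were counted over whole transcripts is not given in the sources used here. Library totals, whole reads (99.987% of values above 0 in each assay, to a relative tolerance of 1e-06 in RNA-seq and 1e-07 in Ribo-seq) and counted lengths were recovered from the steps of the RPKM values. The recovered reads summed to 95.1% to 96.8% of the totals in RNA-seq and 98.3% to 98.8% in Ribo-seq. A length of 20 to 25000 bases was sought, and where several fitted, one of GENCODE or of the other assay was preferred.

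The test was limma 3.58.1 (R 4.3.3), run on genes whose RPKM averaged 1 or more across the 4 libraries of an assay (eBayes with trend, two-sided) on log2(RPKM + 1), group being the only term. Log2 fold changes understate the change of low genes. Calls used the thresholds of the study: beyond 1 with p under 0.001 (mRNA), beyond 1 with p under 0.05 (RPF), and beyond 2 with p under 0.05 (TE), all unadjusted. Adjusted p-values are Benjamini-Hochberg over all genes tested. The steps were also run on simulated reads. Their spread between libraries was set in advance rather than taken from these data, so power in these data was not measured. The members, lists, thresholds and alternatives were chosen with earlier results of these data known. Named genes were all 10 members with every library, and in related lists each gene called in mRNA or RPF, up to 8 per list by the smallest mRNA p. Each list with the number of its genes in the files was as follows: other SR proteins 4, kinases and import 9, SR-related nuclear proteins 31, NMD and exon junction complex 15, nuclear noncoding RNAs 3, and 29 markers of 6 cell types. Of the entries, 23850 RNA-seq and 24431 Ribo-seq symbols are in GENCODE M21. In RNA-seq 4 entries that share a symbol were left out and 26 symbols had been turned into dates. The values of a gene that the rule selects are not reported here.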

Additional observations from a re-analysis of the deposited data

How the results depend on the processing

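Changing the filter (none or a mean RPKM of at least 5), variance trend or blocks cannot alter the mRNA differences, only p-values and counts. With pseudocount 0.1, 3 rescalings, voom on recovered reads or each library left out, the mRNA differences kept their sign in all 10 genes. Their median was -1.01 after a shift of the libraries to a common median and -1.42 to -1.22 with each library left out, and 3 to 7 members were then called lower (3 without HF replicate 1, 4 without HF replicate 2).

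RPF results depended on single libraries and on scaling. With each library left out, where the lone library of a group is assumed to vary like the other group, the median ran from -0.63 to 0.088 (0.088 without HB replicate 1), 0 to 1 members were called lower (Srsf11, without HB replicate 2, its value running from -2.56 to -0.11), and signs turned for Srsf2 (-1.21 to 0.34), Srsf3 (-0.13 to 0.51), Srsf5 (-0.69 to 0.22), Srsf7 (-0.98 to 0.45) and Tra2a (-1.06 to 0.20). At a common sum of RPKM the median was -1.16, 3 members were called lower (Srsf1, Srsf11 and Clk1), and Srsf3 (-0.63) and Tra2b (-0.087) turned. At a common median Srsf5 (0.09), Srsf6 (0.065) and Srsf7 (0.062) turned. The cause was not tested. The TE median was 0.32 at a common sum and 0.69 (without HB replicate 2) to 1.54 (without HB replicate 1) with each library left out, 0 to 3 members were called higher with each library left out (3 without HB replicate 1), and the median TE percentile in HF was 16.6 per coding base.

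Same-numbered HF and HB libraries deviated with a correlation of -0.104 in mRNA and -0.0138 in RPF, so numbers were not taken to pair them. With the replicate block 7 members and 1229 genes were called lower in mRNA and 498 higher, and with a crossed block, chosen after seeing the data, 7, 1303 and 474, against 6, 701 and 246. Without a filter 188 and 77 genes were called, at a common median 291 and 540, without HB replicate 2 1048 and 502, and at an adjusted p under 0.05, 1353 and 535 (8 members). In RPF, where 879 genes were called lower and 177 higher, a common sum gave 2659 and 41, a common median 421 and 349, voom 688 and 434, a mean RPKM of at least 5 gave 311 and 154, leaving out each library 722 to 2609 and 57 to 524, and an adjusted p under 0.05 gave 0. In TE, where 435 and 141 were called, a common sum gave 1332 and 42, a mean RPKM of at least 5 gave 179 and 71, leaving out each library 123 to 1266 and 63 to 455, and an adjusted p 0. Crossing the numbers of RNA-seq and Ribo-seq within groups cannot change a TE difference, so the median of 1.09 was fixed in advance. Only the spread can change, and 411 and 149 genes and 0 members were then called. Depth limits the RPF and TE values: 4 members had 3 or fewer reads in an HB library.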
